A study of Mus musculus with 1 sample.

Results

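A group of 66 cells in the fetal mouse testis carried RNA of the genes Nppc, Vsnl1, Nts, Cpa1, Smoc2 and Bmp2 but little RNA of the enzymes that make steroids. They were chosen among the 4301 cell barcodes with at least 1000 detected genes, of 5421 barcodes in all. A cell was taken when at least 4 of the 6 genes had at least 1 unique molecular identifier (UMI, the tag that marks one captured RNA molecule), and when Cyp11a1, Cyp17a1, Star and Hsd3b1 together held under 0.2% of its UMIs. At most 3 of 8 Sertoli cell genes (Amh, Sox9, Cst9, Aard, Tesc, Mro, Cldn11 and Dhh) and at most 4 of 6 germ cell genes (Ddx4, Dazl, Pou5f1, Dppa3, Dppa5a and Utf1) could have a UMI. The group made up 1.53% of the 4301 barcodes (exact Clopper-Pearson 95% interval 1.19 to 1.95%, counting error only). These 24 genes chose the cells, so their levels are a description and not a finding. The group had been named Leydig-like. Genes that the choice did not use placed it apart from the steroidogenic cells, but the enzyme limit can set this too. It is therefore called the 6-marker cells, by the genes that chose it.

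Fetal Leydig cells lie between the testis cords and make androgens, among them androstenedione. They bring cholesterol into mitochondria through STAR and convert it with CYP11A1, HSD3B1 and CYP17A1, and NR5A1 drives many of the genes of this pathway. They also express Lhcgr, the gene of the luteinizing hormone receptor. They arise from interstitial progenitors that express Nr2f2, Pdgfra and Tcf21 and that receive desert hedgehog from Sertoli cells and Notch and platelet-derived growth factor signals.

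The series examined Nr5a1, which codes for a nuclear receptor, in Sertoli cells, and the one library analysed here was its control, whole testes dissociated with trypsin and captured on droplets. The label gives the genotype as WT and the stage as E14.5, whereas the study describes the control fetuses as Nr5a1 L2/L2, that is homozygous for a loxP-flanked but intact Nr5a1, without the Plekha5 Tg(AMH-cre)1Flor transgene, and as collected at E13.5 and E14.5. The 12 control testes were pooled, so that cells cannot be traced to a fetus, and with 1 library there was no replicate and no test between conditions. All intervals below therefore cover counting error only.

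The library held 72595083 UMIs. The 6-marker cells had a median of 13555.5 UMIs (lowest 6569, highest 127109) and 3757.5 genes. For comparison, 239 steroidogenic cells were taken as barcodes under the same Sertoli and germ limits in which the 4 enzyme genes held at least 1% of UMIs, with a median of 19739 UMIs. Another 1707 interstitial cells were taken as barcodes under the same limits with an enzyme share under 0.2%, UMIs of at least 3 of 4 interstitial genes (Nr2f2, Pdgfra and Tcf21 among them), and at most 1 of the 6 markers, with a median of 10020 UMIs. Levels are given as UMIs per 1000000 of the summed UMIs of a class (CPM), with exact Poisson 95% intervals. Ratios between classes are on a log2 scale with 5 CPM added to both sides, and a gene is called higher or lower at a difference of 2-fold or more, among genes with at least 10 CPM in either class and outside the 24 genes of the choice.

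The number of barcodes fell step by step with the number of markers, whereas few barcodes lay near the enzyme limit. Of 2796 barcodes within the Sertoli and germ limits, 233 had at least 4 markers, and 66 of these were under 0.2% enzyme UMIs, 32 lay from 0.2 to 1% and 135 were at 1% or more. The 3 highest enzyme shares among the 6-marker cells were 0.188, 0.149 and 0.121%, and the 3 lowest shares just outside were 0.201, 0.220 and 0.227%. A further 131 barcodes under the enzyme limit had 3 markers. Within the group 43 cells had 4 markers, 17 had 5 and 6 had all 6. Only 3 barcodes were kept out by the Sertoli limit alone and 0 by the germ limit. The lowest number of genes in a member was 2494, far from the limit of 1000. Cells with an enzyme share between 0.2 and 1% were few, and 32 of the 44 such barcodes had 4 or more markers (72.7%). At an enzyme share of 1% or more 135 of 239 barcodes had them (56.5%), and under 0.2% 66 of 2513 (2.63%).

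**Figure D1:**
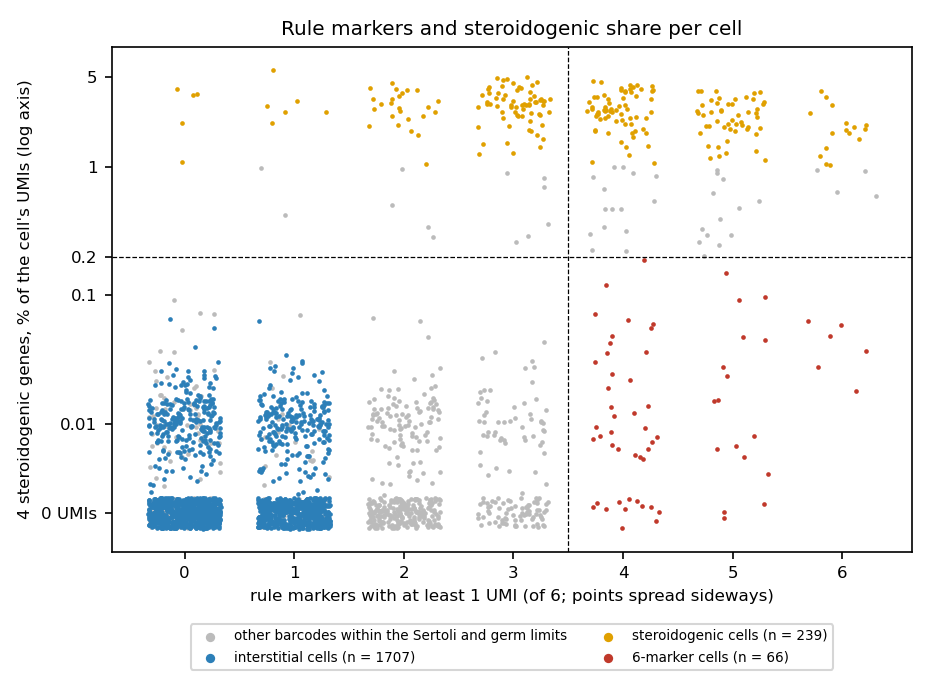
Each point is 1 of the 2796 barcodes within the Sertoli and germ limits, with the number of the 6 markers seen on the horizontal axis and the share of its UMIs from Cyp11a1, Cyp17a1, Star and Hsd3b1 on a logarithmic vertical axis (cells with no such UMI are drawn at the bottom). The 66 chosen cells fill the lower right corner under 0.2%, and the 32 cells with at least 4 markers and a share of 0.2 to 1% lie between them and the steroidogenic cells.

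A few cells of the group stood apart. One had 127109 UMIs, 47 of them from Upk3b and 50 from Wt1, genes that the coelomic epithelium expresses, and it was the only member called a doublet when artificial doublets were added. Among the members outside these 3, Upk3b had 0 UMIs, Wt1 had 3, and the highest UMI total was 25182. Hemoglobin made up 45.3% and 40.6% of the UMIs of a pair of cells, against at most 0.0501% in the other 63. The second of this pair held 5703 UMIs of Hbb-y, an embryonic globin. Values without these 3 cells are given beside the list counts that they change.

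The 6 markers were not evenly spread over the cells. Smoc2, a secreted calcium-binding matrix protein gene (chr17:14279506-14404790 in GRCm38, plus strand), had UMIs in 65 of 66 cells, with 0 in the lowest cell, a median of 5 and 15 in the highest. Cpa1, a carboxypeptidase gene (chr6:30639218-30645363, plus strand), was seen in 62 cells, with a median of 3 UMIs and a highest value of 22. Vsnl1, which codes for the neuronal calcium sensor visinin-like 1 (chr12:11325242-11436613, minus strand), was seen in 55 cells, with a median of 3.5 UMIs and a highest value of 20. Bmp2, a bone morphogenetic protein ligand gene (chr2:133552159-133562885, plus strand), was seen in 42 cells with a median of 1 UMI and at most 8. Nts, the neurotensin precursor gene (chr10:102481756-102490486, minus strand), was seen in 40 cells with a median of 2 UMIs, and 1 cell with 49 UMIs held 13.7% of them. Nppc, which codes for the C-type natriuretic peptide (chr1:86666291-86670571, minus strand), was the rarest, with UMIs in 29 cells, a median of 0 and at most 5.

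Set against the steroidogenic cells, the 6 markers differed in which class was higher. Only the 6-marker cells had to carry these genes, so the differences are partly set by the choice. Smoc2 was at 348 CPM (313 to 386) in the 6-marker cells and 57.2 CPM (51.0 to 64.0) in the steroidogenic cells, and Nts was at 346 CPM (312 to 384) against 116 CPM (107 to 125). Nppc went the other way, at 39.6 CPM (28.4 to 53.7) against 386 CPM (369 to 403), and Cpa1 was at 280 CPM (249 to 314) against 446 CPM (428 to 464). Vsnl1 was at 294 CPM (262 to 329) against 263 CPM (249 to 277), intervals that overlapped. Bmp2 was at 64.7 CPM (50.1 to 82.1) against 25.3 CPM (21.2 to 29.9). In the 135 steroidogenic cells with at least 4 markers, Smoc2 was at 87.8 CPM, Nts at 188 CPM and Bmp2 at 40.2 CPM. Nppc was there at 475 CPM, Cpa1 at 589 CPM and Vsnl1 at 301 CPM. In germ cells, which should lack Nppc, 1.30% of 308 cells had a UMI at a median of 37937 UMIs. The share was 43.9% of the 6-marker cells, which Nppc helped to choose. After every cell was thinned to 5000 UMIs, which kept all 66 members and left out 8 steroidogenic and 70 interstitial cells, the Nppc share was 25.8% in the 6-marker cells and 66.2% in the steroidogenic cells.

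By genes outside the choice, the 6-marker cells lay apart from the steroidogenic cells and next to one another and to barcodes with fewer markers. Principal components of variable genes were computed without the 24 genes, and the 15 nearest barcodes of each member were counted. Of these neighbours 32.0% were other members, although members were 1.53% of the barcodes. Interstitial cells, which have at most 1 marker and were 39.7% of all barcodes, supplied 16.7% of the neighbours, whereas steroidogenic cells, 5.56% of all barcodes, supplied 0.404%. A further 40.9% were barcodes under the enzyme limit with 2 or 3 of the markers. When the same graph was cut into clusters, 238 of the 239 steroidogenic cells fell into a cluster that held 0 members. The members were in a cluster led by Mxd3, Pimreg and H1f5, genes of dividing cells (28 cells), in a cluster led by genes that included Serpina3g, Osr2, Hhip and Wfdc1 (32 cells), in one led by Colec11 (5 cells) and in one led by Upk3b (the cell with 127109 UMIs). They were a minority there, 28 of the 377 barcodes of the first cluster and 32 of the 291 of the second. Interstitial cells were 203 and 122 of these barcodes. The markers Nts and Smoc2 were at rank 1 and 4 among the leading genes of the second. UMIs of at least 3 of the 4 interstitial genes were found in 57 of 66 members (86.4%) and in 20 of 239 steroidogenic cells (8.37%). The cells were therefore not described as Leydig cells, although some Leydig genes were present.

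The 4 enzyme genes were present at low levels but in other proportions than in the steroidogenic cells. Of the 66 cells, 15 had no UMI of any of them, and the median share was 0.0104% of UMIs. Cyp11a1, the enzyme of the first step, was at 63.7 CPM (49.3 to 81.0) in the 6-marker cells, 10509 CPM in the steroidogenic cells and 9.45 CPM in the interstitial cells. Cyp17a1 was at 105 CPM (86.4 to 127) against 14624 and 12.2 CPM. Without the 3 cells set apart, Cyp11a1 was at 40.1 CPM and Cyp17a1 at 90.5 CPM, since the cell with 127109 UMIs held 24.5% of the enzyme UMIs of the group.

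Germ cells, which do not make steroids, were used to gauge the background of these genes. One germ barcode with 124290 UMIs held 93.1% of the enzyme UMIs of that class, so summed levels are given without this barcode, a choice made after its values were seen. Cyp11a1 was then at 7.02 CPM and Cyp17a1 at 8.98 CPM in the germ cells. UMIs of Cyp11a1 were seen in 37.9% of the 6-marker cells and 25.4% of these deeper germ cells, and those of Cyp17a1 in 30.3% and 28.3%. Star, the cholesterol carrier, was at 53.1 CPM (40.0 to 69.1) against 1912 CPM in the steroidogenic, 3.42 CPM in the interstitial and 2.04 CPM in the germ cells. UMIs of Star were seen in 48.5% of the 6-marker cells (36.0 to 61.1%) and in 7.82% of the germ cells. Hsd3b1 was at 69.5 CPM (54.4 to 87.5) against 3078, 4.17 and 4.66 CPM in the same order.

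The proportions of the 4 genes among themselves also differed between classes. Their sum chose both the 6-marker and the steroidogenic cells, so these shares are a description. Star and Hsd3b1 together held 127 of the 302 enzyme UMIs in the 6-marker cells (42.1%, 36.4 to 47.8%), and 49.8% (43.1 to 56.5%) without the 3 cells set apart. The share was 26.0% in the interstitial cells (22.5 to 29.8%), 16.6% in the steroidogenic cells (16.4 to 16.7%) and 18.0% in the 32 cells with at least 4 markers just above the enzyme limit (16.7 to 19.5%). In 1072 Sertoli cells under the same enzyme limit it was 49.7% (46.4 to 53.0%), so a share of this size was not particular to the 6-marker cells.

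Most counted genes of Leydig identity outside the choice were above the interstitial level, and most were below the steroidogenic level. Of 8808 genes measured against the interstitial cells, 214 were higher in the 6-marker cells (2.43%) and 257 were lower (2.92%), with a median log2 ratio of 0.00. Against the steroidogenic cells, 1479 of 8854 genes were higher (16.7%) and 809 lower (9.14%), with a median of 0.21. Of 17 Leydig identity genes, 12 reached 10 CPM against the interstitial cells, and 8 of these were higher and 0 lower (median 1.59). Against the steroidogenic cells 16 reached it, and 12 were lower and 2 higher (median -2.28). Without the 3 cells set apart these counts were 8 and 1 against the interstitial cells, and 11 lower and 2 higher against the steroidogenic cells. The list was not fully independent of the choice, since cells were taken by other Leydig genes.

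Insl3, the hormone gene of testis descent, had 40 UMIs in the 6-marker cells, or 38.6 CPM (27.6 to 52.6), against 656 CPM (635 to 678) in the steroidogenic cells and 0.101 CPM (0.0122 to 0.363) in the interstitial cells. These UMIs were in 20 of the 66 cells, at most 10 in a cell, while 1.30% of germ cells had one. After thinning to 5000 UMIs the shares were 16.7% of 6-marker cells, 93.9% of steroidogenic cells and 0.122% of interstitial cells. Lhcgr, the luteinizing hormone receptor, was at 36.7 CPM (25.9 to 50.3) against 328 CPM in the steroidogenic and 0.603 CPM in the interstitial cells. Nr5a1, the gene under study in the series and intact in these fetuses, was at 84.0 CPM (67.2 to 104) against 246 and 16.9 CPM, with a median of 1 UMI per cell, a lowest of 0 and a highest of 12. Prlr, the prolactin receptor, was at 136 CPM (115 to 160) against 284 and 37.3 CPM. Gsta2, a glutathione transferase, was at 79.1 CPM (62.9 to 98.2), above the interstitial 8.24 CPM and close to the steroidogenic 63.2 CPM. UMIs of Insl3 or Lhcgr were found in 31 of the 66 cells, and 24 of these 31 also had UMIs of at least 3 of the 4 interstitial genes, as had 33 of the other 35. All 4 were seen in 11 of the 31 and in 22 of the 35. The 31 cells had a median of 13447 UMIs and the other 35 a median of 13664. In the interstitial cells 13 of 1707 (0.762%) had a UMI of either gene.

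Among the 15 other genes of steroid synthesis, 11 of the 12 with enough UMIs were lower than in the steroidogenic cells and 4 of 10 were higher than in the interstitial cells, with 0 lower. Fdxr, the reductase that feeds electrons to mitochondrial P450 enzymes, was at 312 CPM (279 to 348), with UMIs in 58 cells, against 1163 CPM in the steroidogenic cells and 39.9 CPM in the interstitial cells. It was also at 299 CPM in the Sertoli cells. Its partner ferredoxin, Fdx1, was at 220 CPM (192 to 251) against 5340 and 72.0 CPM. Scarb1, the lipoprotein receptor that supplies cholesterol, was at 111 CPM (91.6 to 133) against 1304 and 32.2 CPM, and Por was the fourth gene that was higher than in the interstitial cells, by 1.19 on the log2 scale. Fdxr thus reached a larger part of its steroidogenic level than Fdx1 or Scarb1 did.

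Other genes of the steroidogenic cells were missing or far lower. Clps, C4b and Lefty2 had 0 UMIs in the 6-marker cells and 435, 423 and 194 CPM in the steroidogenic cells, which is at least 150-fold, 146-fold and 67.0-fold higher there when 3 UMIs over the class are taken as the floor. The adrenal-type enzymes Cyp21a1 and Cyp11b1 also had 0 UMIs, against 64.7 and 124 CPM in the steroidogenic cells. The genes with the lowest ratios by the naming rule further included Cst8 (12.6 against 1570 CPM), Adh1 (2.90 against 528 CPM), Npy (1.93 against 441 CPM), Inha, the inhibin alpha subunit (42.5 against 2586 CPM), Hao2 (8.69 against 727 CPM), Alas1, the first enzyme of heme synthesis (43.4 against 2102 CPM), Prkar2b, a regulatory subunit of protein kinase A (32.8 against 1577 CPM), Mgarp (7.72 against 504 CPM) and Ren1, the renin gene (125 against 3775 CPM). Inha was nevertheless at 5.43 CPM in the interstitial cells, 2.19 lower than in the 6-marker cells on the log2 scale, and Ren1 was at 43.8 CPM. Of 24 genes of cholesterol synthesis and transport, 21 were lower than in the steroidogenic cells (median -2.73) and 0 were higher. Against the interstitial cells 0 of the 24 passed 2-fold either way (median -0.15). Sqle, the squalene epoxidase gene, was at 56.9 CPM in the 6-marker cells, 330 CPM in the steroidogenic cells and 68.3 CPM in the interstitial cells.

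**Figure D2:**
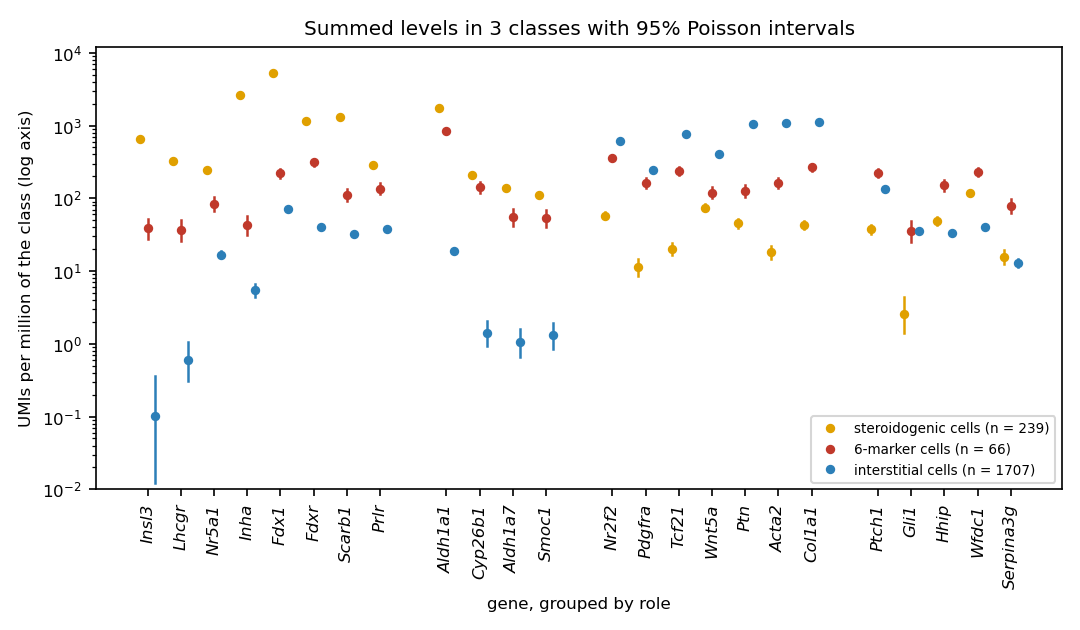
Points give the CPM of 24 genes in the steroidogenic, 6-marker and interstitial cells on a logarithmic axis, and bars give 95% Poisson intervals. The 6-marker cells lie between the other classes for Insl3, Lhcgr, Nr5a1 and the interstitial genes Nr2f2 to Col1a1, and above both for Hhip, Wfdc1 and Serpina3g.

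The genes that were highest against the interstitial cells were led by enzymes of retinoid metabolism. Aldh1a1, a retinaldehyde dehydrogenase that makes retinoic acid (chr19:20492715-20643465), was at 849 CPM (794 to 907) against 18.8 CPM (16.9 to 20.8) in the interstitial cells, a log2 ratio of 5.17. Its UMIs were in 53 of 66 cells, with 0 in the lowest, a median of 10.5 and 73 in the highest. Cyp26b1, which degrades retinoic acid (chr6:84571414-84593908), was at 141 CPM (119 to 166) against 1.41 CPM, a log2 ratio of 4.51, in 33 of 66 cells. Aldh1a7, a relative of Aldh1a1 from which short reads may not always be told apart, was at 55.0 CPM against 1.05 CPM. In the germ cells, at their greater median depth of 37937 UMIs, 24.7% had an Aldh1a1 UMI and 5.19% a Cyp26b1 UMI. In the steroidogenic cells Aldh1a1 was at 1748 CPM and Cyp26b1 at 211 CPM, both above the 6-marker cells. In the Sertoli cells Aldh1a1 was at 1186 CPM and Cyp26b1 at 87.0 CPM. The Sertoli gene Amh had 0 UMIs in the 6-marker cells and Sox9 was at 25.1 CPM, against 1775 and 306 CPM in the Sertoli cells.

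The remaining genes named among the 12 highest ratios to the interstitial cells were Mcrip2 (123 against 6.83 CPM), Kctd14 (216 against 16.6 CPM), Smoc1, a relative of Smoc2 (53.1 against 1.31 CPM), Acsbg1, an acyl-CoA synthetase (122 against 9.85 CPM), Susd3 (54.0 against 2.01 CPM), Lhcgr, Mmd2 (74.3 against 5.73 CPM), Wnt6, a Wnt ligand (228 against 27.7 CPM), and Fdxr. Kctd14 and Wnt6 were not particular to these cells, since the Sertoli cells had 920 and 998 CPM. Mcrip2, Smoc1 and Acsbg1 were at 342, 113 and 1216 CPM in the steroidogenic cells.

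Interstitial genes were kept in part. Of 16 genes of interstitial progenitors, 12 of the 15 with enough UMIs were higher than in the steroidogenic cells (median 2.29) and 0 lower, whereas against the interstitial cells 5 of 15 were lower and 0 higher (median -0.60). Nr2f2, a nuclear receptor of the interstitium, was at 356 CPM (321 to 394) against 57.4 CPM in the steroidogenic and 608 CPM in the interstitial cells, with a median of 5 UMIs per cell. Pdgfra, the receptor of platelet-derived growth factors, was at 164 CPM (140 to 191) against 11.3 and 242 CPM. Neither gene was 2-fold lower than in the interstitial cells, although the interstitial class was itself chosen by genes that included Nr2f2, Pdgfra and Tcf21. Tcf21, a basic helix-loop-helix factor, was at 236 CPM (208 to 268) against 20.1 and 765 CPM, a log2 ratio of -1.67 to the interstitial cells. In 1 cell lay 27.8% of its UMIs. Dlk1 was at 549 CPM against 47.2 and 808 CPM. The other genes that were lower than in the interstitial cells were Pdgfrb, Wnt5a, Lhx9 and Ptn, with Ptn, the pleiotrophin gene, at 126 CPM against 1053 CPM.

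Several contractile and matrix genes were lower than in the interstitial cells. Acta2, smooth muscle actin, was at 164 CPM (140 to 191) against 1089 CPM, and Tagln was at 35.7 CPM against 338 CPM, with 73.0% of its UMIs in 1 cell. All 6 peritubular myoid genes that reached 10 CPM were lower than in the interstitial cells, and 5 were without the 3 cells set apart. The summed level of the 7 genes of this list was 839 CPM against 2872 CPM. Of 24 matrix genes, 8 were lower than in the interstitial cells (9 without the 3 cells) and 1, Smoc1, was higher, while 18 of 22 were higher than in the steroidogenic cells and 2 lower, which were 14 and 1 without the 3 cells. Col1a1, a fibrillar collagen gene, was at 265 CPM (235 to 299) against 42.9 CPM in the steroidogenic and 1128 CPM in the interstitial cells. Col1a2 was at 1103 CPM and Col4a1, a basement membrane collagen gene, at 673 CPM, and neither was 2-fold lower than in the interstitial cells. Rgl1 had 0 UMIs against 40.0 CPM in the interstitial cells, at least 13.8-fold higher there. Lum (4.83 against 80.6 CPM), S100a6 (14.5 against 163 CPM), Mgp (42.5 against 339 CPM), Frem1 (8.69 against 74.7 CPM), Col6a3 (18.3 against 124 CPM) and Akap12 (16.4 against 111 CPM) completed the named genes except S100a8 and S100a9, whose UMIs came from 0.352% and 0.410% of the interstitial cells. The cell with 127109 UMIs raised several of these in the 6-marker cells, and without the 3 cells set apart 418 genes were lower than in the interstitial cells, 241 of them shared with the 257.

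The hedgehog targets Ptch1, Gli1 and Hhip were present at the interstitial level or above, and of these only Hhip passed 2-fold. Ptch1, the hedgehog receptor and itself a target, was at 223 CPM (195 to 254) against 37.7 CPM in the steroidogenic cells and 136 CPM (131 to 141) in the interstitial cells. Gli1, the transcription factor most often used as a readout, was at 35.7 CPM (25.1 to 49.2) against 2.60 and 35.9 CPM. Hhip, which binds and restrains the ligand, was at 151 CPM (128 to 176) against 48.3 and 33.7 CPM, with a median of 2 UMIs per cell and a highest of 12. The co-receptor Gas1 was lower than in the interstitial cells, with a log2 ratio of -2.26. Of 13 hedgehog genes, 8 of 11 were higher and 1 lower than in the steroidogenic cells, or 7 and 2 without the 3 cells set apart. Against the interstitial cells 1 of 10 was higher and 1 lower (median -0.18).

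Genes of the Notch and BMP pathways were then counted in the same way. Of 12 Notch genes, 5 of 7 were higher than in the steroidogenic cells, among them the receptor Notch3 (2.43 on the log2 scale) and the target Hes1 (3.25), and 0 of 7 passed 2-fold against the interstitial cells, or 1, which was higher, without the 3 cells set apart. Among 28 BMP genes, the ligands Bmp5 and Bmp7 were the only genes outside the choice that were higher than in the interstitial cells, by 1.62 and 1.89. The BMP targets Id1 and Id3 were at 161 and 171 CPM, against 12.3 and 15.2 CPM in the steroidogenic cells and 195 and 405 CPM in the interstitial cells. One cell, that with 127109 UMIs, held 41.9% of the Id1 and 69.5% of the Id3 UMIs, and without the 3 cells set apart Id1 was at 111 CPM and Id3 at 61.9 CPM. Id2 was at 102 CPM, with 91.5% of its UMIs in that cell, and at 10.3 CPM without the 3 cells, below the 24.2 CPM of the steroidogenic cells. Of the 28, 9 of 19 outside the choice with enough UMIs were higher and 3 lower than in the steroidogenic cells (7 and 3 without the 3 cells), and 2 of 18 were higher and 1 lower than in the interstitial cells (2 and 4 without the 3 cells). Of 21 Wnt genes, 6 of 10 were higher and 1 lower than in the steroidogenic cells (4 and 1 without the 3 cells), and 1 of 11, Wnt6, was higher and 2 were lower than in the interstitial cells (1 and 5 without the 3 cells). The Wnt ligands Wnt5a and Wnt4 were lower than in the interstitial cells, with log2 ratios of -1.71 and -1.53. Of 20 genes of the platelet-derived, insulin-like and fibroblast growth factor families, 9 of 15 were higher (8 without the 3 cells) and 2 lower than in the steroidogenic cells, while 0 of 14 were higher and 4 lower than in the interstitial cells (6 lower without the 3 cells).

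The receptors for the peptides that the markers encode were scarce. Npr2, the receptor of C-type natriuretic peptide, was at 6.75 CPM (2.72 to 13.9) in the 6-marker cells, 0.558 CPM in the steroidogenic cells and 7.54 CPM in the interstitial cells. Npr3, the clearance receptor, was at 1.93 CPM (0.234 to 6.97) against 0.186 and 8.59 CPM. Npr1, which binds the other natriuretic peptides, was at 11.6 CPM in the 6-marker cells and 114 CPM in the Sertoli cells. The neurotensin receptor Ntsr1 had 0 UMIs, which allows a share of up to 4.55% of cells with a UMI. Of the processing enzymes of peptide precursors, Cpe was higher than in the interstitial cells, with a log2 ratio of 1.74, or 1.39 without the 3 cells set apart.

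A set of genes was higher in the 6-marker cells than in both other classes, 79 genes that made up 5.34% of those higher than in the steroidogenic cells and 36.9% of those higher than in the interstitial cells. Both comparisons share the 66 cells, so this overlap is given only as a count. Serpina3g, a serine protease inhibitor gene, was at 78.2 CPM (62.1 to 97.2) against 15.8 CPM in the steroidogenic and 12.9 CPM in the interstitial cells. Stc2, stanniocalcin 2, was at 58.9 CPM against 11.3 and 4.22 CPM, and Hhip, described above, also belonged to the 79. Serpina3g and Stc2 were not particular to the group. The 32 cells just above the enzyme limit had 70.0 CPM of Serpina3g (50.7 to 94.3) and 47.2 CPM of Stc2 (31.6 to 67.8). Hhip was at 86.3 CPM in those 32 cells, against 151 CPM (128 to 176) in the 6-marker cells. In the 131 cells under the enzyme limit with 3 markers it was at 118 CPM (103 to 135), intervals that overlapped. Those 131 cells had 49.1 CPM of Serpina3g and 17.8 CPM of Stc2. Against all 4235 other barcodes, 220 of 9167 genes were higher (2.40%) and 606 lower (6.61%). The highest ratios there were those of Serpina3g (2.48), Wfdc1, which codes for a whey acidic protein domain protein (2.35), Hhip (2.32), the collagen gene Col23a1 (2.30), the prokineticin receptor gene Prokr2 (2.30), Serpinb9 (2.26), the glutamate receptor subunit gene Grin2a (2.25), the estrogen receptor gene Esr1 (2.23), Plxdc1 (2.22), Serpinb1a (2.19), Stc2 (2.17) and Otof (2.17). Of these, the 32 cells just above the enzyme limit had 203 CPM of Wfdc1, 94.4 CPM of Prokr2 and 42.3 CPM of Esr1. The 6-marker cells had 228, 91.7 and 46.3 CPM. Col23a1 and Grin2a were at 68.4 and 71.6 CPM in the 32 cells, against 106 and 93.6 CPM. The 131 cells with 3 markers had 181 CPM of Wfdc1, 44.2 CPM of Prokr2 and 12.4 CPM of Esr1. Their levels of Col23a1 and Grin2a were 60.4 and 55.0 CPM. The lowest ratios to all other barcodes were those of Ptgds, at 3.86 CPM against 472 CPM, and Defb19, at 22.2 CPM against 880 CPM. The choice kept out cells with many Sertoli or germ cell genes, so low levels of genes of those cells there are set by it.

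The same genes were followed over the number of markers in a cell. For this description, cells within the Sertoli and germ limits, under the enzyme limit and with at least 3 interstitial genes were grouped by the number of markers seen, without the 3 cells set apart. There were 914 cells with 0 markers, 793 with 1, 326 with 2, 123 with 3, 34 with 4 and 20 with 5 or 6. The cells with 0 or 1 marker are the interstitial class and those with 4 or more are members, so the ends restate the comparison above for genes that differed in it, and only the cells with 2 or 3 markers add to it. Aldh1a1 went from 14.1 CPM (11.9 to 16.6) at 0 markers through 23.8, 65.8, 156 and 648 to 1219 CPM (1097 to 1352) at 5 or 6. Insl3 went from 0.0977 CPM (0.00247 to 0.544) to 67.2 CPM (41.0 to 104), with 2.82 CPM at 3 markers and 19.3 CPM at 4. Cyp26b1 went from 1.27 to 178 CPM, Fdxr from 29.7 to 396 CPM, Lhcgr from 0.489 to 57.1 CPM, Nr5a1 from 16.6 to 90.7 CPM and Wfdc1 from 22.5 to 259 CPM. In the other direction, Acta2 went from 1199 to 87.3 CPM, Ptn from 1221 to 144 CPM, Tcf21 from 821 to 141 CPM, Mgp from 421 to 20.2 CPM and Wnt5a from 420 to 94.1 CPM. Nr2f2 changed less, from 620 CPM at 0 markers to 423 CPM (353 to 504) at 5 or 6, and Ptch1 went up from 105 to 262 CPM at 4 markers and stood at 225 CPM at 5 or 6. Nr2f2 and Tcf21 are among the interstitial genes that chose these cells, so their levels are partly set by that choice. The median depth of the cells also rose, from 9853.5 UMIs at 0 markers to 14295.5 UMIs at 5 or 6, and its part in these differences was not tested. In the cells with 2 and 3 markers, Cyp26b1 was at 5.82 and 18.1 CPM, Fdxr at 80.1 and 115 CPM, Wfdc1 at 112 and 176 CPM, Tcf21 at 622 and 494 CPM, and Acta2 at 591 and 674 CPM.

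**Figure D3:**
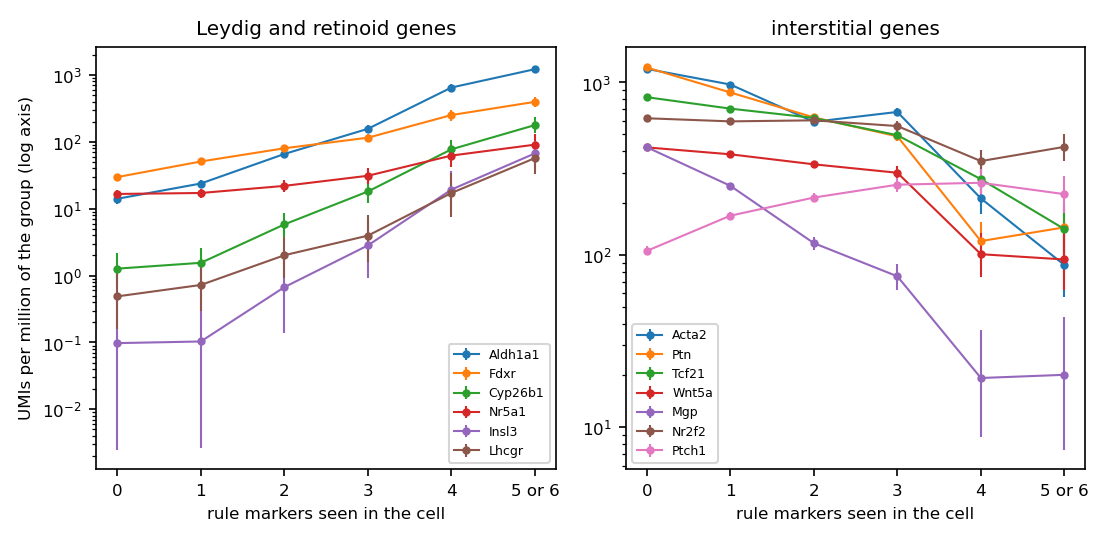
The horizontal axis gives the number of markers seen in cells with at least 3 interstitial genes and an enzyme share under 0.2%, and the logarithmic vertical axis gives CPM of the summed cells with 95% Poisson intervals. Leydig and retinoid genes (left) are higher with each number of markers from 1 to 5 or 6, while Acta2, Tcf21 and Wnt5a (right) are lowest at 5 or 6 markers.

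Cell cycle genes were high in the 6-marker cells. All 20 cell cycle genes were higher than in the steroidogenic cells (median 2.95), whereas 1 of 20 was higher than in the interstitial cells. Mki67, the proliferation antigen Ki-67, was at 244 CPM (215 to 276) against 5.58 CPM in the steroidogenic and 185 CPM in the interstitial cells, and was seen in 34 of 66 cells. Top2a, the topoisomerase of dividing cells, was at 414 CPM (376 to 455) against 16.2 and 343 CPM. Cell cycle genes were also most of the names with the highest ratios to the steroidogenic cells, among them Pclaf (4.38 on the log2 scale), Birc5 (4.31) and Hmgb2 (4.19). The other names were Olfml3 (4.37), Hsd11b2, the enzyme that inactivates glucocorticoids (4.02), and the cadherin gene Cdh11 (3.99). The summed level of the 20 genes per cell had a median of 1853 CPM in the 6-marker cells (lowest 0, highest 7192), 159 CPM in the steroidogenic cells and 1007 CPM in the interstitial cells. It was over 1000 CPM in 40 of 66 cells (60.6%), 7 of 239 steroidogenic cells (2.93%) and 858 of 1707 interstitial cells (50.3%). Members with an Mki67 UMI had a median of 15462.5 UMIs and the others 11926.5. In the interstitial cells these medians were 13257 and 9021.5 UMIs. A rule that counts markers seen favours deeper cells, and the part of depth in these shares was not tested. Cdkn1c, the cell cycle inhibitor p57, was at 242 CPM (213 to 274), against 2377 CPM in the steroidogenic and 172 CPM in the interstitial cells. The cell with 127109 UMIs held 77 of its UMIs, at 606 CPM in that cell. Cdkn1c was at 126 CPM in the 28 members of the cluster led by Mxd3 and 278 CPM in the 32 of the cluster with Serpina3g.

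**Figure D4:**
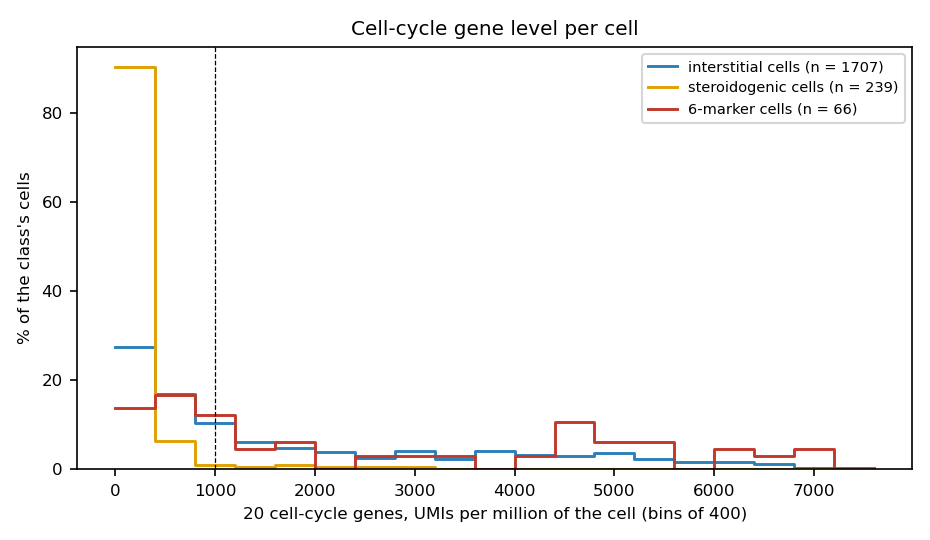
The lines give the share of cells of each class in bins of 400 CPM of the 20 cell cycle genes, and the dashed line marks 1000 CPM. Steroidogenic cells lie almost wholly under it, and 40 of the 66 cells of the 6-marker group lie above it.

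Within the group, the clusters of dividing and other cells had similar levels of some of the genes above, while others differed. All 28 members of the cluster led by Mxd3 were over 1000 CPM of cell cycle genes (median 5012 CPM), against 9 of the 32 members of the cluster that held Serpina3g (median 707 CPM). Aldh1a1 was at 844 CPM in the first and 1097 CPM in the second, Insl3 at 36.3 and 40.4 CPM, Fdxr at 325 and 339 CPM, and Nr2f2 at 372 and 293 CPM. Nts differed more, at 218 CPM against 589 CPM, as did Cpa1 at 177 against 440 CPM and Tcf21 at 252 against 109 CPM. Lhcgr was at 19.2 CPM in the first and 63.2 CPM in the second, and Star at 32.0 and 91.0 CPM. Cyp26b1 was at 107 and 197 CPM in the same order. UMIs of Aldh1a1 were in 19 of the 28 cells of the first and in 31 of the 32 of the second. The median depths were 16663.5 and 12116.5 UMIs. Nts, Cpa1 and Star are genes of the choice and took no part in the clustering, which could use the others, and with 1 library all of these are descriptions only.

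The 32 cells just above the enzyme limit formed a mixed set. Of these, 17 were in the steroidogenic cluster and 14 in the clusters that held the 6-marker cells, and 9 had UMIs of at least 3 interstitial genes. Their Nr2f2 level was 272 CPM, between the 356 CPM of the 6-marker cells and the 64.6 CPM of the 135 steroidogenic cells with at least 4 markers. Insl3 was at 210 CPM, against 38.6 and 655 CPM, and Nppc at 314 CPM, against 39.6 and 475 CPM. Mki67 was at 137 CPM, against 244 and 5.39 CPM. Among these 32 cells 1, with 143197 UMIs, was called a doublet. Without it, a choice made after its values were seen, Nr2f2 was at 170 CPM, Insl3 at 242 CPM, Nppc at 401 CPM and Mki67 at 146 CPM. Not every gene lay between the other classes. Without the doublet, Wfdc1 was at 257 CPM, Prokr2 at 121 CPM and Cyp26b1 at 463 CPM. The 6-marker cells had 228, 91.7 and 141 CPM, and the 135 steroidogenic cells 128, 16.8 and 240 CPM. The median of 14668 UMIs over the 32 cells stood near the 13555.5 UMIs of the 6-marker cells.

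Markers of other cell types were then summed over the group. Of 8 immune genes 7 had 0 UMIs, with Csf1r the exception. The 9 coelomic epithelium genes summed to 126 CPM, of which Upk3b in 1 cell gave the most, and to 8.02 CPM without the 3 cells set apart. The 8 erythroid genes summed to 15108 CPM, led by Hbb-y, and to 184 CPM without the 3 cells. The 7 endothelial genes summed to 49.2 CPM against 61.5 CPM in the interstitial cells, and the 6 perivascular genes to 39.6 against 50.9 CPM. The 8 Sertoli genes of the choice summed to 60.8 CPM against 55.3 CPM in the interstitial cells. Mitochondrial UMIs had a median of 6.21% in the 6-marker cells, 12.3% in the steroidogenic cells and 6.23% in the interstitial cells, and their part in the comparison with the steroidogenic cells was not tested, beyond the counts without these genes given in the closing section.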

How the data were processed

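Whole testes of control fetuses were captured on droplets and sequenced by the authors as 1 library. The authors deposited a matrix of UMI counts, not normalized, of 22631 features in 5421 barcodes. The file header names software version 3.1.0 and the submitters' notes list Cell Ranger 3.0.2 and 3.1.0, with reads aligned to mm10 and a YFP sequence, while the study's methods name another version. The step that called cells was not repeated here.

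Members, classes and gene lists were chosen with earlier results of these data known. Counts were summed per class and scaled to 1000000, with exact Poisson 95% intervals for levels and Clopper-Pearson intervals for shares. There was no test, since cells of 1 library are not replicates. Named genes were the 12 highest and 12 lowest log2 ratios per comparison (at least 20 CPM in the higher class, at least 50 UMIs over both), except hemoglobin and mitochondrial genes, and genes of the fixed lists. A member of the interstitial rule and a gene of another list are not reported here. Neighbours and Leiden clusters (leidenalg 0.10.2) used 30 components of 2000 variable genes. Doublets were scored with 1683 artificial doublets (204 of 5049 barcodes with at least 200 genes called) and kept, with counts without them as an alternative. Steps were tested on simulated data, in which all 200 genes changed 4-fold were recovered in the comparison with the interstitial cells and 5 of the other genes were called. In the comparison with the steroidogenic cells all 200 were recovered too and 12 other genes were called. The simulated counts held counting error only, with no spread between cells, and the changed genes were at 20 CPM or more. These numbers are therefore not an error rate for the real classes. Python 3.11.15 with numpy 2.4.6 and scipy 1.17.1 was used. Gene positions came from GENCODE on GRCm38. Depth per cell limits the low genes, and the floor used for a gene with 0 UMIs, 3 UMIs over the 66 cells, is 2.90 CPM.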

Additional observations from a re-analysis of the deposited data

How the results depend on the processing

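The number of 6-marker cells depended on the marker rule, with 197 at 3 or more markers, 23 at 5 or more and 27 when every barcode was thinned to 5000 UMIs. It stayed between 63 and 82 under the other alternatives, which moved the enzyme limit, the gene minimum, doublets and outliers. At a minimum of 50 CPM in either class, which tests fewer genes, the genes higher and lower were 604 and 442 against the steroidogenic cells, 112 and 92 against the interstitial cells, and 135 and 147 against all other barcodes. With at least 5 markers, 328 genes were higher than in the interstitial cells and 349 higher than in all other barcodes. Genes lower than in the interstitial cells numbered 423 with doublets removed, 422 with 1 CPM added and 418 without the 3 cells set apart, an alternative chosen after seeing the data. At 3000 UMIs the share of members with an Nr2f2 UMI was 54.5% (78.8% at 5000 UMIs). With 30 neighbours 25.7% were members and 19.2% interstitial cells. Leaving mitochondrial and hemoglobin genes out of the totals gave 1405 higher and 952 lower genes against the steroidogenic cells.

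Among named genes, Id2 reversed against the steroidogenic cells, to a log2 ratio of -0.93 with doublets removed, -0.26 with the mean of per-cell CPM and -0.93 without the 3 cells. S100a6 went to -0.11 without the 3 cells. Upk3b went to 0 with doublets removed and without the 3 cells, and against all other barcodes to -2.20 with doublets removed, -0.85 with the mean of per-cell CPM and -2.17 without the 3 cells. The log2 ratio of Aldh1a1 to the steroidogenic cells, -1.04, fell short of 2-fold with at least 5 markers (-0.82), without the 3 cells (-0.92), with doublets removed (-0.95), with the mean of per-cell CPM (-0.99) and with outliers removed (-0.997). With a single library of 12 pooled testes, intervals cover counting error only, and genes near 10 CPM rest on about 10 UMIs in the 66 cells.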
